A study of Mus musculus with 9 samples.

Results

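Pachytene and diplotene spermatocytes of C57Bl mice that had received no drug were described from their 3 untreated libraries, A, B and C, of 9 libraries in the series. These libraries were chosen by their label alone, and every gene with a value was kept, which gave 49216 of the 55471 genes in the deposited table. The cells were sorted from enzyme-digested testis of transgenic mice that carry the red fluorescent protein tdTomato under a promoter active in germ cells, which the labels do not name, and they were kept in culture for a time the labels do not give. The series also holds 3 libraries of such cells after 48 h in 24 mM oxamate, an inhibitor of lactate dehydrogenase, and 3 after the same oxamate together with 0.3 mM octyl-L2HG, a cell-permeable form of L-2-hydroxyglutarate; they are not compared here. The labels do not say whether the 3 untreated libraries came from separate animals or cultures, so an SD below is a spread between libraries only and may be of technical origin.

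Pachytene is the long stage of meiotic prophase in which paired homologous chromosomes are held together by the synaptonemal complex and crossovers are completed, and in diplotene that complex comes apart. Spermatocytes at these stages silence their X and Y chromosomes while transcribing large numbers of autosomal genes, among them germline copies of metabolic genes whose ancestral copy is used in other tissues. Many of the messages made then are stored with RNA-binding proteins and are translated only after meiosis, when the spermatid builds its acrosome and tail.

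Each library held 42121633 counts in A, 27722221 in B and 33388390 in C, so on the CPM scale (counts scaled by the library total) 1 count was worth 0.0237 CPM in A, 0.0361 in B and 0.0300 in C. CPM corrects for library size and not for the length of a gene. A count of 0 allows a level of up to 3 counts, which is 0.0712 CPM in A, 0.108 in B and 0.0899 in C; such limits cover counting error only. At least 1 CPM in all 3 libraries was reached by 12994 genes, 26.4% of those with a value, while 2118 genes (4.30%) reached 100 CPM and 100 genes (0.203%) reached 1000 CPM. Across the 12994 genes, Pearson's r of log2 CPM between libraries lay between 0.995 and 0.996, where the points are genes and not independent replicates.

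The most abundant protein-coding transcripts included those of RNA-binding proteins, sperm-tail and acrosome proteins, chaperones and lactate dehydrogenase C. The noncoding RNA Gm42418, described below, ranked 2 among all genes by CPM with 6033 ± 3687 CPM (SD over 3 libraries). Pabpc1, which encodes the cytoplasmic poly(A)-binding protein, had 5747, 6974 and 6619 CPM in libraries A, B and C. Of the Y-box proteins that package stored germ-cell messages, Ybx3 ranked 11 by CPM with 2895, 3111 and 3029 CPM. Ybx2 ranked 13 with 2787, 3038 and 3053 CPM. Library A was the lowest of the 3 for Pabpc1, Ybx3 and Ybx2.

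Dnah8, a heavy chain of the outer dynein arm of the sperm tail, had 6061, 4634 and 6440 CPM, with library B apart from the other two. Ldhc, the lactate dehydrogenase subunit of spermatocytes and sperm, had 3871, 3500 and 3594 CPM and ranked 5 among all genes by CPM. It lies at chr7:46861203-46878142 on the plus strand (GRCm38). Its level varied little between libraries, with an SD of 193 CPM around a mean of 3655 CPM.

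Other genes among the 30 with the most counts belong to sperm structures that are built after meiosis. Odf2, a protein of the outer dense fibres of the tail, averaged 3159 ± 143 CPM (SD, n = 3, as for all values below). Atp8b3, a phospholipid flippase of the acrosome, averaged 3528 ± 69.5 CPM and Crisp2, a secretory protein of the acrosome and tail, 2317 ± 72.8 CPM. Rsph1, of the axoneme's radial spoke heads, averaged 2048 ± 218 CPM and Dnah17, another outer-arm dynein heavy chain, 2010.3 ± 95.1 CPM. Genes with roles in the cell body or in meiosis were also among the 30. Tcp1, a subunit of the cytosolic chaperonin, averaged 3114 ± 18.2 CPM, Nasp, a histone chaperone, 3157 ± 390.0 CPM, and Mael, a protein of the piRNA pathway that silences transposons, 2044 ± 68.9 CPM. The glucose carrier Slc2a3 averaged 2916 ± 118 CPM.

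**Figure D1:**
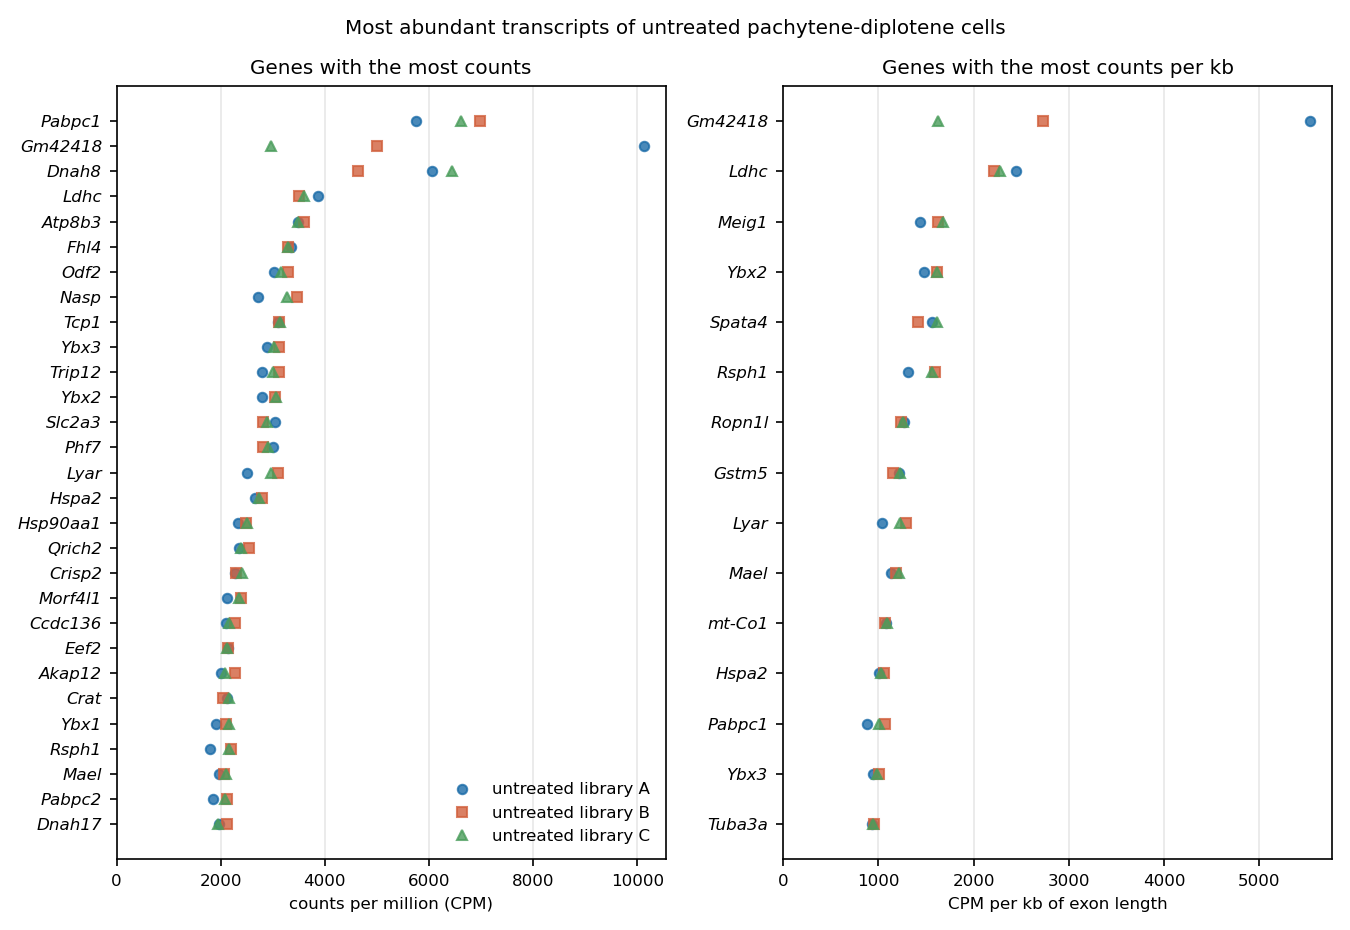
Levels of 29 of the 30 genes with the most counts (left, CPM) and of the 15 genes with the most counts per kb of exon (right, CPM per kb), with 1 symbol per untreated library. Most genes have 3 symbols close together, while Gm42418 ranges between 2973 CPM in library C and 10126 CPM in library A.

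Long genes collect more counts, so levels of different genes were compared per kb of exon length. On this scale Ldhc was the first of all protein-coding genes, with 2450, 2215 and 2275 CPM per kb in libraries A, B and C. Next came Meig1, which acts in the manchette that shapes the spermatid head, with 1581 ± 127 CPM per kb, Ybx2 with 1570.0 ± 79.2, Spata4, a testis gene, with 1532 ± 106, and Rsph1 with 1493 ± 159 CPM per kb. These 4 levels lie within their spread of each other, and all 3 libraries of Ldhc lie above all of theirs. Ropn1l, of the fibrous sheath of the tail, had 1253 ± 13.7 CPM per kb, Hspa2, the testis HSP70 chaperone, 1031 ± 26.9, Pabpc1 986 ± 96.6, and the alpha-tubulin gene Tuba3a 946 ± 13.7 CPM per kb. Of the top 100 genes by CPM, 55 were also among the top 100 by CPM per kb.

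Counts were spread over many genes. The 10 genes with the most counts held 4.56% of library A, 4.07% of B and 3.997% of C, the top 100 held between 18.9% and 19.4%, and the top 1000 held between 58.3% and 60.1%. It took 690 genes in A, 640 in B and 667 in C to reach 50% of the counts. Of the top 100 genes, 93 were in the top 100 of every library.

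The summed levels of some gene families follow, taken by symbol and chosen after their values had been seen. Y-box and poly(A)-binding proteins summed to 18393 ± 1305 CPM over 10 genes, 1.84% of all counts, with Pabpc1, Ybx3 and Ybx2 in front. The axonemal dynein heavy chains summed to 12514 ± 646 CPM over 15 genes, of which 11 reached 100 CPM in all 3 libraries. Chaperones of the HSP70 and HSP90 classes summed to 9764 ± 397 CPM, led by Hspa2 with 2727 ± 71.2 and Hsp90aa1 with 2439 ± 89.4 CPM, where 47.5% of the 50-base windows of Hsp90aa1 also occur in other annotated genes. All 9 chaperonin genes reached 100 CPM, where 4.30% of all genes did in every library.

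Among surface proteins, the ADAM genes encode a family of membrane metalloprotease-like proteins with several members on sperm. Of 33 ADAM genes, 26 reached 1 CPM in all 3 libraries, where 26.4% of all genes did. They were led by Adam5 with 1998 ± 85.3, Adam3 with 1905 ± 54.1 and Adam32 with 1324 ± 88.8 CPM. Tudor domain proteins, scaffolds of the germ granules, summed to 3072 ± 2.02 CPM, of which Tdrd6 gave 2008 ± 58.9 CPM. The PIWI proteins that carry piRNAs were represented by Piwil1 with 653 ± 41.8 CPM and Piwil2 with 155 ± 18.1 CPM, while Piwil4, which acts in fetal germ cells, had 0.0378 ± 0.0089 CPM, below the limit that a count of 0 allows. Cytosolic ribosomal proteins summed to 6774 ± 553 CPM over 82 genes.

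Gene ontology terms in the deposited table were counted as well, for terms also chosen with values known. Of the 96 top genes by CPM that carry any term, 12.5% carry spermatogenesis, 15.6% RNA binding, 10.4% motile cilium, 5.21% protein folding, 8.33% mitochondrion and 2.08% translation. Among the 10658 annotated genes at or above 1 CPM these shares were 3.27%, 6.46%, 1.17%, 0.798%, 10.9% and 2.25% in the same order. For the annotated genes of the top 100 by CPM per kb they were 12.1%, 10.99%, 8.79%, 3.297%, 16.5% and 2.198%. The share of mitochondrion among top genes was thus below that of expressed genes by CPM and above it by CPM per kb. No test was made of these shares.

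Protein-coding genes held nearly all counts, with 95.4% in library A, 95.9% in B and 96.1% in C. They make up 44.6% of the genes with a value and 82.9% of those at or above 1 CPM, and 49.1% of them reached that level. Long noncoding RNAs (lncRNAs) held 3.63%, 3.07% and 2.92% in the same libraries, and 1621 of 9959 of them (16.3%) reached 1 CPM. The pseudogene class with the largest share was processed pseudogenes, which lack introns, with 0.285 ± 0.00858%.

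The lncRNA with the most counts was Gm42418, which had 10126, 4999 and 2973 CPM in libraries A, B and C. Gm42418 lies at chr17:39846958-39848788 (GRCm38, plus strand), inside an 18S ribosomal RNA-related gene on the minus strand, CT010467.1, for which the table gives no count. AY036118, on the minus strand of the same segment, had 48.2, 16.5 and 10.99 CPM, and Lars2, the mitochondrial leucyl-tRNA synthetase on chromosome 9, had 1381, 489 and 357 CPM. All 3 have library A highest and library C lowest. With these genes left out of the totals, lncRNAs held 2.62 ± 0.0309% and protein-coding genes 96.4 ± 0.0273%, with smaller SDs than the 0.376 and 0.368 percentage points found with them. The library kit was a stranded one, but no source used here states whether counting was by strand. AY036118 lies wholly inside Gm42418 on the other strand and had 2031, 457 and 367 counts of its own. Whether counts of genes on opposite strands of a segment were kept apart was not tested.

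Other lncRNAs varied less between libraries. Gm11837 had 837, 814 and 874 CPM, a level of 832 ± 29.9 CPM per kb that ranked 18 among all genes, and Gm38973 had 531, 758 and 695 CPM. The nuclear lncRNAs Malat1 and Neat1, which are abundant in many somatic tissues and were chosen after their values had been seen, had 57.2 ± 16.2 and 17.5 ± 0.590 CPM. The highest processed pseudogene, Gm7444, had 1091 ± 81.1 CPM, with 28.1% of its 50-base windows in other annotated genes.

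Germline copies were set against their somatic paralogs in 58 pairs. In 47 pairs the germline gene was higher in every library, both in CPM and in CPM per kb; in 9 pairs the somatic paralog was higher per kb in every library, and in 2 pairs the libraries overlapped. For 51 pairs with counts in every library of both genes, the median log2 ratio of CPM per kb, germline over somatic, was 5.75. By coding length in place of exon length, the mean log2 ratio was above 0 in 40 of these 51 pairs and below 0 in 11. Over the 47 pairs in which both genes share fewer than 25% of their 50-base windows with other genes, 37 had the germline gene higher, and the median log2 ratio was 4.58 over the 41 of them with counts in every library. The other 7 pairs had 3 or fewer counts of the somatic paralog in all libraries together, or none, and with these at the low end of their interval, or at the bound a count of 0 allows, the median over all 58 was 6.72. With 3 libraries an exact sign-flip test cannot give a two-sided p below 0.25, so no test was made, and the order is read against the spread between libraries alone.

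Lactate dehydrogenase, the enzyme that turns pyruvate and lactate into each other, had its germline subunit in front. Ldhc had 2450, 2215 and 2275 CPM per kb, against 393, 367 and 377 CPM per kb for Ldha, the muscle-type subunit, in libraries A, B and C. The libraries of these genes did not overlap. Per kb, Ldhc stood 6.10-fold above Ldha (log2 ratio 2.61 ± 0.03), and the log2 ratio was 1.66 when coding length was used in place of exon length, where 3310 bases of exon are annotated for Ldha and 1580 for Ldhc. Ldhb, the heart-type subunit, had 5, 1 and 5 counts, a level of 0.102 ± 0.0588 CPM that is close to the limit a count of 0 allows. Ldhal6b, a further lactate dehydrogenase-like gene picked after its values had been seen, had 1102 ± 26.4 CPM.

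Phosphoglycerate kinase, which makes ATP in glycolysis, has its somatic gene on the X chromosome. Pgk2, the autosomal germline gene, had 226, 203 and 196 CPM per kb, against 0.434, 0.354 and 0.427 CPM per kb for Pgk1, whose levels rest on 41, 22 and 32 counts. The ratio per kb was 516-fold (log2 ratio 9.01 ± 0.16), and 53.9% of the 50-base windows of Pgk1 also occur in other annotated genes. How reads with several matches were counted is stated in no source used here.

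The 120 bases before the RefSeq start of these 4 genes are shown because they set the germline and the somatic gene of each enzyme side by side. Capitals mark matches to the GC box GGGCGG, the CCAAT box, the cyclic AMP response element TGACGTCA and the MYB motif AACNGTTA, on either strand.
Ldhc: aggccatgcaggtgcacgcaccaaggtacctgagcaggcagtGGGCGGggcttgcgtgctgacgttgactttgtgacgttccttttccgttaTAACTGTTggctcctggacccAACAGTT
Ldha: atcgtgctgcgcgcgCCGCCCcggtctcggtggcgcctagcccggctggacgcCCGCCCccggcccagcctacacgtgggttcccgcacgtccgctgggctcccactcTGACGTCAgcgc
Pgk2: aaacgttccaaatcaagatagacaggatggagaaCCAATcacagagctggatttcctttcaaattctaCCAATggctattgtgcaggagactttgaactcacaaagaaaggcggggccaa
Pgk1: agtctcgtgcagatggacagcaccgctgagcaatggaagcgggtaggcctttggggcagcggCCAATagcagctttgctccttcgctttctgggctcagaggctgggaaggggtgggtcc
The stretches are from RefSeq on GRCm38.p6, at chr7:46861143-46861262 (plus strand) for Ldhc, chr7:46845684-46845803 (plus strand) for Ldha, chr17:40208610-40208729 (minus strand) for Pgk2 and chrX:106186980-106187099 (plus strand) for Pgk1. Ldhc and Ldha each have another RefSeq start, which is not shown. In the deposited annotation Ldhc starts at 46861203 and Pgk2, on the minus strand, at 40208640, both inside the printed stretch. The bases after those points, with both MYB matches of Ldhc, thus lie within the annotated genes.

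In the Ldhc stretch the capitals mark 1 GC box and 2 MYB matches, the second of which runs 1 base past the printed end. The Ldha stretch holds 2 GC boxes on the minus strand and a cyclic AMP response element, to which CREM, the activator of spermatid genes, can bind. Both Pgk2 and Pgk1 hold CCAAT boxes, 2 in Pgk2 and 1 in Pgk1, and the 300 bases around the Pgk1 start hold 5 GC boxes, all outside the printed stretch. The MYB motif is bound by MYBL1, the regulator of pachytene transcription, whose gene had 275, 317 and 296 CPM, while Myb itself had 1, 0 and 2 counts. In windows of 300 bases around the starts of protein-coding genes, of 16844 with a window, the MYB motif occurred in 1.29% of genes at or above 1 CPM and in 1.56% of genes below it. A GC box occurred in 64.3% of the genes at or above 1 CPM and 36.3% of those below, a cyclic AMP response element in 3.80% and 1.42%, a CCAAT box in 43.5% and 41.0%, and the TATA box TATAAA in 8.70% and 20.9%. Of the top 100 protein-coding genes by CPM, 69 had a window. A GC box was held by 48 of these (69.6%) and a CCAAT box by 31 (44.9%). The TATA box was held by 6 (8.70%), a cyclic AMP response element by 4 (5.80%) and a MYB motif by 3 (4.35%). These shares rest on few genes, and their difference from those above was not tested. A match describes letters only and shows no binding, and no match says only that these letters are absent from the window.

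Of the 10 pairs of glycolysis and lactate metabolism, 7 had the germline gene higher in every library per kb of exon, the scale of the levels in this and the following pairs. Pgam2, a phosphoglycerate mutase of muscle and testis, had 803 ± 20.6 CPM per kb, against 2.88 ± 0.192 CPM per kb for Pgam1, of whose windows 36.2% are shared with other genes, and Gapdhs, the glyceraldehyde phosphate dehydrogenase of sperm, had 97.3 ± 15.9 CPM per kb, against 1.51 ± 0.0992 CPM per kb for Gapdh. Hexokinase Hk1, which is used in many tissues and has a sperm form that gene counts do not separate, had 77.2 ± 2.63 CPM per kb, against 8, 1 and 2 counts of Hk2. Glycerol kinase Gk2 had 568 ± 22.7 CPM per kb, against 0.0594 ± 0.0149 CPM per kb for the X-linked Gk. For aldolase, Aldoart1 had 11.96 ± 1.62 CPM per kb and Aldoart2 38.3 ± 6.66, against 38.7 ± 2.76 CPM per kb for Aldoa. Aldoart1 lay below Aldoa in every library, and Aldoart2 overlapped with it. Eno4, the enolase of the sperm tail, had 30.3 ± 1.05 CPM per kb, against 28.9 ± 2.62 CPM per kb for Eno1, and the libraries of both overlapped. The log2 ratio was 0.07 per kb of exon and -1.40 per kb of coding length. By CPM Eno1 was higher in every library, with 155 ± 14.1 against 77.9 ± 2.70 CPM, and 26.0% of its windows are shared with other genes.

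Beyond glycolysis, all 4 pairs of pyruvate, pentose phosphate and nucleotide metabolism had the germline gene higher in every library. Pdha2, the testis subunit of pyruvate dehydrogenase, had 117 ± 6.66 CPM per kb, against 1, 1 and 0 counts of the X-linked Pdha1. The ratio per kb was 22700-fold, with an exact 95% interval for counting error of 6283 to 187451. Prps1l1, a ribose-phosphate pyrophosphokinase, had 190.4 ± 3.11 CPM per kb, against 1.70 ± 0.216 CPM per kb for Prps1, and Tktl2, a transketolase, 26.7 ± 0.476 CPM per kb, against 0.229 ± 0.0259 CPM per kb for Tkt. G6pd2, an intronless glucose 6-phosphate dehydrogenase gene, had 6.70 ± 0.473 CPM per kb, against 5, 2 and 3 counts of G6pdx, a level close to the limit that a count of 0 allows.

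All 7 pairs of the respiratory chain and its carriers also had the germline gene higher in every library. Cyct, the testis cytochrome c, had 192 ± 15.1 CPM per kb, against 0.225 ± 0.0597 CPM per kb for Cycs, a ratio of 870-fold per kb, with 26.1% of the windows of Cycs shared with other genes. Cox8c, a subunit of cytochrome oxidase, had 843 ± 30.5 CPM per kb, against 3.35 ± 0.384 CPM per kb for Cox8a, and Cox6b2 had 127 ± 15.6 CPM per kb, against 4.23 ± 0.841 CPM per kb for Cox6b1. The adenine nucleotide carrier Slc25a31 had 29.1 ± 0.920 CPM per kb, against 5, 2 and 3 counts of Slc25a4 and 0.146 ± 0.0168 CPM per kb of Slc25a5, of whose windows 33.8% are shared.

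**Figure D2:**
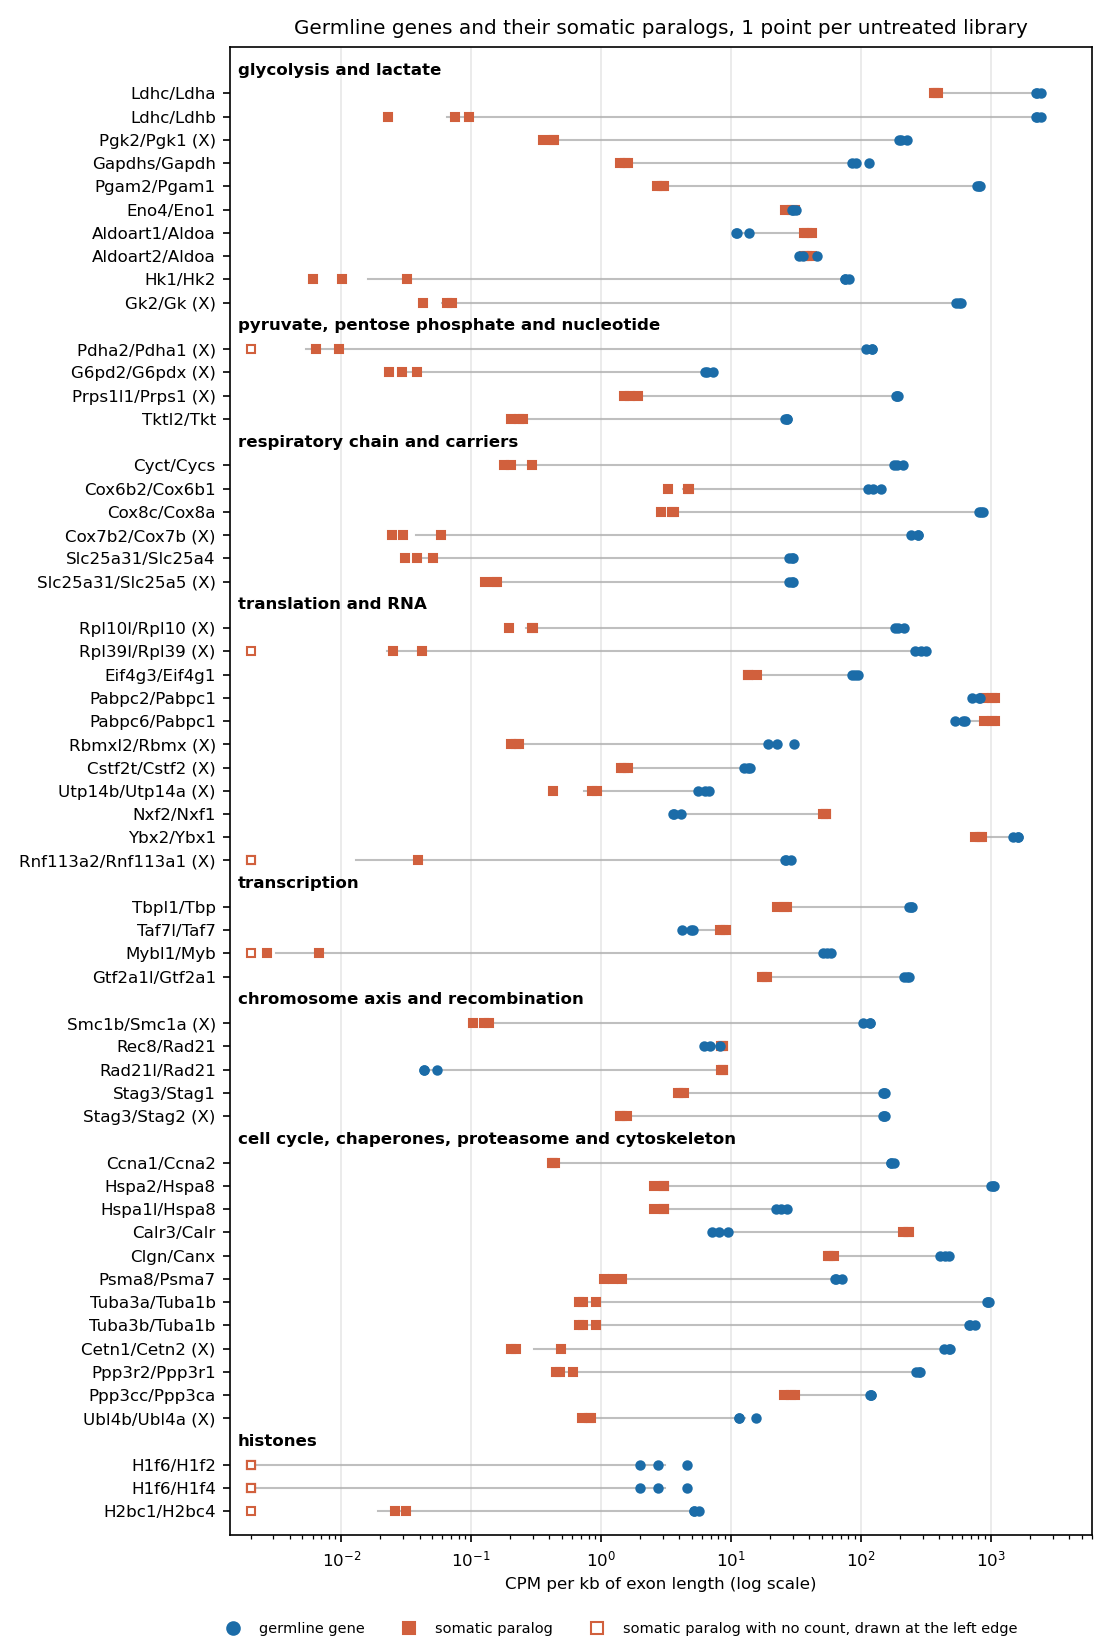
CPM per kb of exon length (log scale) of germline genes (circles) and somatic paralogs (squares) in 55 of the 58 pairs by class, with 1 symbol per untreated library, a line between the means, open squares for libraries with no count, and (X) where the somatic paralog is X-linked. Circles lie to the right of squares in 45 of the 55 pairs drawn, and the exceptions include Aldoart1/Aldoa, Nxf2/Nxf1, Calr3/Calr and Rad21l/Rad21.

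In translation and RNA handling 8 of 11 pairs had the germline gene higher. Rpl10l, a retrogene for a ribosomal protein, had 197 ± 16.99 CPM per kb, against 0.262 ± 0.0571 CPM per kb for the X-linked Rpl10, of whose windows 29.7% are shared with other genes, and Rpl39l had 289 ± 26.8 CPM per kb, against 0, 1 and 2 counts of Rpl39. Eif4g3, a translation initiation scaffold needed in male meiosis, had 90.7 ± 4.75 CPM per kb, against 14.2 ± 1.32 CPM per kb for Eif4g1. Ybx2 and Ybx1 were both abundant, with 1570.0 ± 79.2 against 812 ± 48.8 CPM per kb. The somatic paralog was higher for the poly(A)-binding proteins, with 781 ± 57.2 CPM per kb of Pabpc2 and 589 ± 51.7 of Pabpc6, against 986 ± 96.6 CPM per kb of Pabpc1. By coding length the log2 ratio was 0.33 for Ybx2 over Ybx1, where exon length gave 0.95, and -1.65 for Pabpc2 over Pabpc1, where exon length gave -0.33. The mRNA export factor Nxf2, which is X-linked, had 3.79 ± 0.276 CPM per kb, against 52.7 ± 1.58 CPM per kb for the autosomal Nxf1.

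Of transcription factor pairs, 4 of 5 had the germline gene higher, and of chromosome axis and recombination pairs 3 of 6. Tbpl1, a TBP-like factor of spermatogenesis, had 235, 243 and 248 CPM per kb, against 22.5, 26.8 and 25.7 CPM per kb for Tbp. The X-linked Taf7l had 4.75 ± 0.470 CPM per kb, against 8.63 ± 0.443 CPM per kb for Taf7. Of the meiotic cohesins, Smc1b had 113 ± 7.78 CPM per kb, against 0.122 ± 0.0175 CPM per kb for the X-linked Smc1a, and Stag3 had 151 ± 1.97 CPM per kb, against 4.13 ± 0.205 CPM per kb for Stag1 and 1.47 ± 0.101 CPM per kb for Stag2. For the kleisin subunits, Rec8 had 7.11 ± 1.06 CPM per kb and Rad21l 3, 2 and 3 counts, against 8.59 ± 0.177 CPM per kb for Rad21.

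Of the 12 pairs of cell cycle, chaperone, proteasome and cytoskeleton genes, 11 had the germline gene higher. Ccna1, the cyclin of late meiotic prophase, had 174 ± 4.77 CPM per kb, against 0.429 ± 0.0119 CPM per kb for Ccna2. Hspa2 had 1031 ± 26.9 CPM per kb, against 2.86 ± 0.279 CPM per kb for Hspa8, with 37.0% of the windows of Hspa8 shared with other genes. The endoplasmic reticulum chaperone Clgn had 441 ± 32.9 CPM per kb, against 58.6 ± 3.18 CPM per kb for Canx, while its relative Calr3 had 8.23 ± 1.19 CPM per kb, against 224 ± 11.5 CPM per kb for Calr. Tuba3a had 946 ± 13.7 CPM per kb, against 0.771 ± 0.125 CPM per kb for Tuba1b, of whose windows 74.3% are shared with other genes. The centriole protein Cetn1 had 464 ± 26.5 CPM per kb, against 0.304 ± 0.162 CPM per kb for the X-linked Cetn2. H1f6, the testis linker histone, had 3.10 ± 1.33 CPM per kb, and H1f2 and H1f4 had no count in any library. Libraries were made by poly-A capture, and replication-dependent histone messages such as those of H1f2 and H1f4 lack a poly-A tail, so a low count of them says nothing of their level. Whether the same limit holds for the germline histone genes of these pairs was not tested. Without the 3 histone pairs the germline gene was higher in 44 of 55 pairs.

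The pairs were also divided by the chromosome of the somatic paralog. All 17 pairs with an X-linked somatic paralog had the germline gene higher in every library, against 30 of 41 pairs with an autosomal one. The median log2 ratio per kb was 7.73 over the 14 X-linked pairs and 3.63 over the 37 autosomal pairs that have counts in all libraries. X-linked paralogs reached at most 13.9 CPM (Cstf2), with a median of 0.539 CPM, and the autosomal paralogs reached 6447 CPM with a median of 12.3 CPM. In the 2 pairs with an X-linked germline gene, Nxf2/Nxf1 and Taf7l/Taf7, the somatic paralog was higher in every library. The pairs were chosen with their levels known, so these counts describe the list only.

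Sex-chromosome genes as a whole were low. The X chromosome held 0.196%, 0.171% and 0.181% of counts in libraries A, B and C, against 2.14% to 9.33% for each of the 19 autosomes. Of 933 X-linked protein-coding genes 193 (20.7%) reached 1 CPM in all libraries, against 50.9% of 20738 autosomal ones, and 3.11% of X-linked genes reached 10 CPM, against 32.4% of autosomal ones. Those that did reach 1 CPM had a median of 1.90 CPM per kb on the X, against 5.40 on the autosomes. The Y chromosome held 0.0119%, 0.0114% and 0.0115% of counts, and its highest protein-coding gene, the translation factor Eif2s3y, had 15.7 ± 1.14 CPM.

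The 1 X-linked protein-coding gene at or above 100 CPM in every library was Akap4, the anchor protein of the fibrous sheath that is transcribed after meiosis, with 305, 236 and 267 CPM, or 14.8% of all X-linked counts. Tsga8, another gene of haploid germ cells, had 64.0 ± 11.98 CPM. Cul4b, a ubiquitin ligase scaffold, had 39.2 ± 1.65 CPM, Alg13, of protein glycosylation, 33.4 ± 0.639 CPM and the deubiquitinase Usp9x 31.8 ± 1.203 CPM. Akap4 and Tsga8 had their highest level in library A and their lowest in B.

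**Figure D3:**
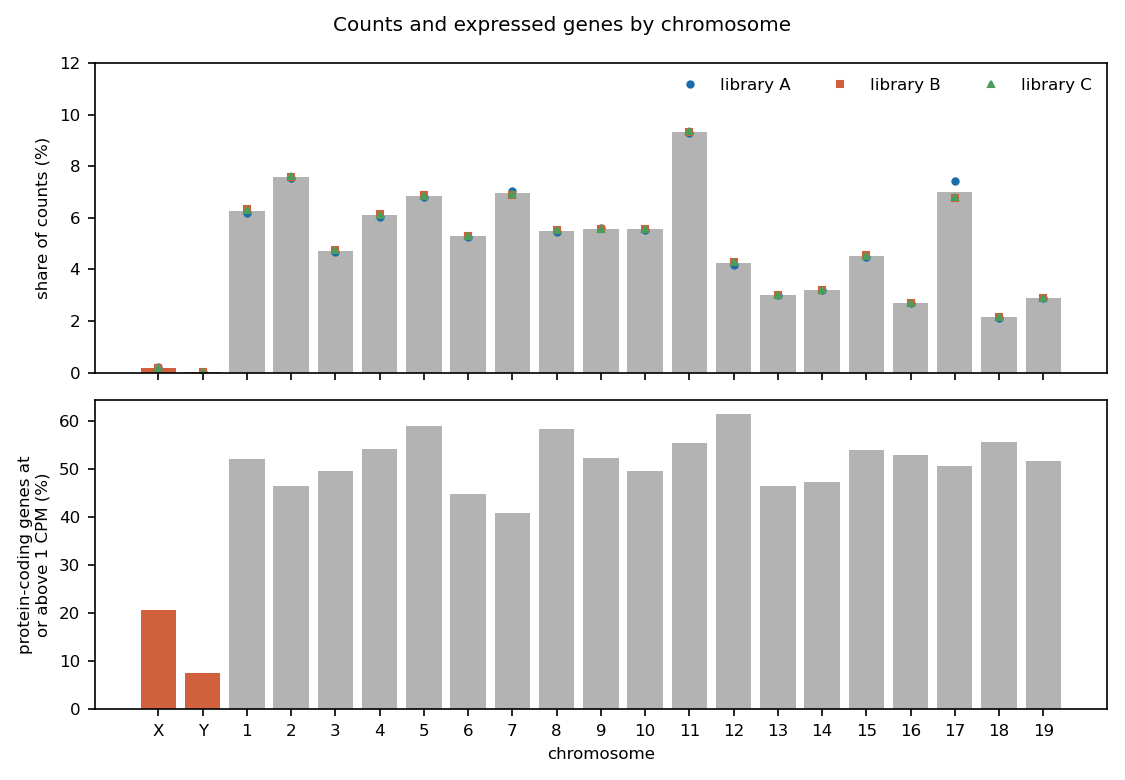
Share of counts (upper panel, %, bars for the mean and symbols for libraries) and share of protein-coding genes at or above 1 CPM in all 3 libraries (lower panel, %) for each chromosome. X and Y, at the left, hold 0.183% and 0.0116% of counts, and 20.7% and 7.56% of their protein-coding genes reached 1 CPM.

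Levels of marker genes were set beside the labelled stage. The marker lists were chosen with earlier results of these data known, so their levels are no independent check of the label. The 6 markers of meiotic germ cells were all above 100 CPM in every library: Ldhc, Ddx4, the germ-cell RNA helicase, with 1027 ± 35.0 CPM, Adam2, a sperm surface protein, with 891 ± 27.3 CPM, Piwil1 with 653 ± 41.8 CPM, Pgk2 with 339 ± 26.2 CPM, and Sycp3, of the chromosome axis, with 169 ± 11.6 CPM. The list of 10 markers of pachytene cells holds Ldhc, Adam2, Piwil1 and Pgk2 again, and it summed to 11392 ± 128 CPM. Of these 10 markers, 9 reached 100 CPM in every library, where 4.30% of all genes did. The exception was H1f6, with 4.18, 2.49 and 1.83 CPM. It is a histone gene, and how well poly-A capture recovers its message was not tested, so its level may be understated. In bulk samples fewer cells of a type and less RNA per cell cannot be told apart.

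Late pachytene and diplotene markers were present too, all 12 at or above 10 CPM, where 14.7% of all genes were in every library. Clgn led, followed by Nek2, a kinase of chromosome condensation and centrosome separation, with 747 ± 28.4 CPM. Aurka, the Aurora kinase, had 369.6 ± 17.2 CPM, Ccnb2, a B-type cyclin, 291 ± 8.95 CPM, and Plk1, the Polo kinase, 213 ± 12.9 CPM. Cdc25c, the phosphatase that activates the meiotic kinase complex, was lowest with 14.1 ± 1.24 CPM.

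Synaptonemal complex genes spanned a wide range, with 7 of 9 at or above 10 CPM, against 14.7% of all genes. Sycp2, of the lateral element, had 726, 751 and 833 CPM, and Syce1, of the central element, 588, 649 and 644 CPM. Sycp1, the transverse filament, had 215 ± 31.1 CPM, while Tex12 and Six6os1, both of the central element, had 4.65 ± 0.906 and 8.28 ± 0.685 CPM.

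Several markers of earlier stages stayed below 1 CPM. Of 8 leptotene and zygotene markers, 5 reached 1 CPM, where 26.4% of all genes did in every library. Prdm9, which places the recombination hotspots, had 0.541 ± 0.132 CPM, and Dmc1, the meiotic strand-exchange protein, and Mei4 were below 1 CPM too. Others of the same list were high: Meioc, which keeps spermatocytes in prophase, had 454 ± 30.8 CPM, Hormad1, of unpaired axes, 142 ± 12.8 CPM, and Spo11, the nuclease that makes the meiotic breaks, 75.8 ± 9.86 CPM. Stra8, the inducer of meiotic entry, had 1, 1 and 2 counts, and Kit, the receptor of differentiating spermatogonia, had 1.62 ± 0.323 CPM. Dmrtb1, a factor of the switch between mitosis and meiosis, was the exception in its list, with 969.8 ± 91.2 CPM. Without it the 7 other members of the list summed to 4.65 CPM in A, 3.97 in B and 4.10 in C.

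The 8 markers of undifferentiated spermatogonia summed to 48.1 ± 6.25 CPM, of which Id4, an inhibitor of helix-loop-helix factors, gave 42.4 ± 6.23. Gfra1, the receptor for the niche factor GDNF, had 4.36 ± 0.248 CPM, and the other 6, among them Zbtb16, Nanos2 and Lin28a, were each below 1 CPM.

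Markers of haploid cells were measurable. All 12 round spermatid markers reached 1 CPM, where 26.4% of all genes did in every library. Their median was 50.4 CPM, and they were led by Acr, the acrosomal protease, with 261 ± 18.0 CPM and Crem with 218 ± 6.75 CPM. Of the 12, 10 were highest in library A, where 52.3% of the 12994 genes at or above 1 CPM were highest too; with scaling by the median of ratios the same count was 10, and the share of all genes 34.9%. Among elongating spermatid markers, Prm1 had 62.8, 50.7 and 71.8 CPM, Prm2 83.0, 69.3 and 107 CPM, and Tnp1 82.1, 67.6 and 84.1 CPM; these encode the protamines and transition protein that replace histones. Smcp, of the sperm mitochondrial capsule, had 188.5 ± 7.04 CPM. All 12 members reached 10 CPM in every library, where 14.7% of all genes did. The list summed to 4422 ± 31.1 CPM, against 4021 ± 203 CPM for the late pachytene and diplotene list. Odf2 gave 3159 CPM of it, and the other members summed to 1385, 1109 and 1295 CPM in libraries A, B and C. Of the 12 elongating spermatid markers, 6 were highest in library A and 5 in C. In library B 11 of them were lowest, where 50.9% of the 12994 genes were lowest too. The labels give no purity of the sort, and the part of haploid cells in the levels of both lists was not tested.

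**Figure D4:**
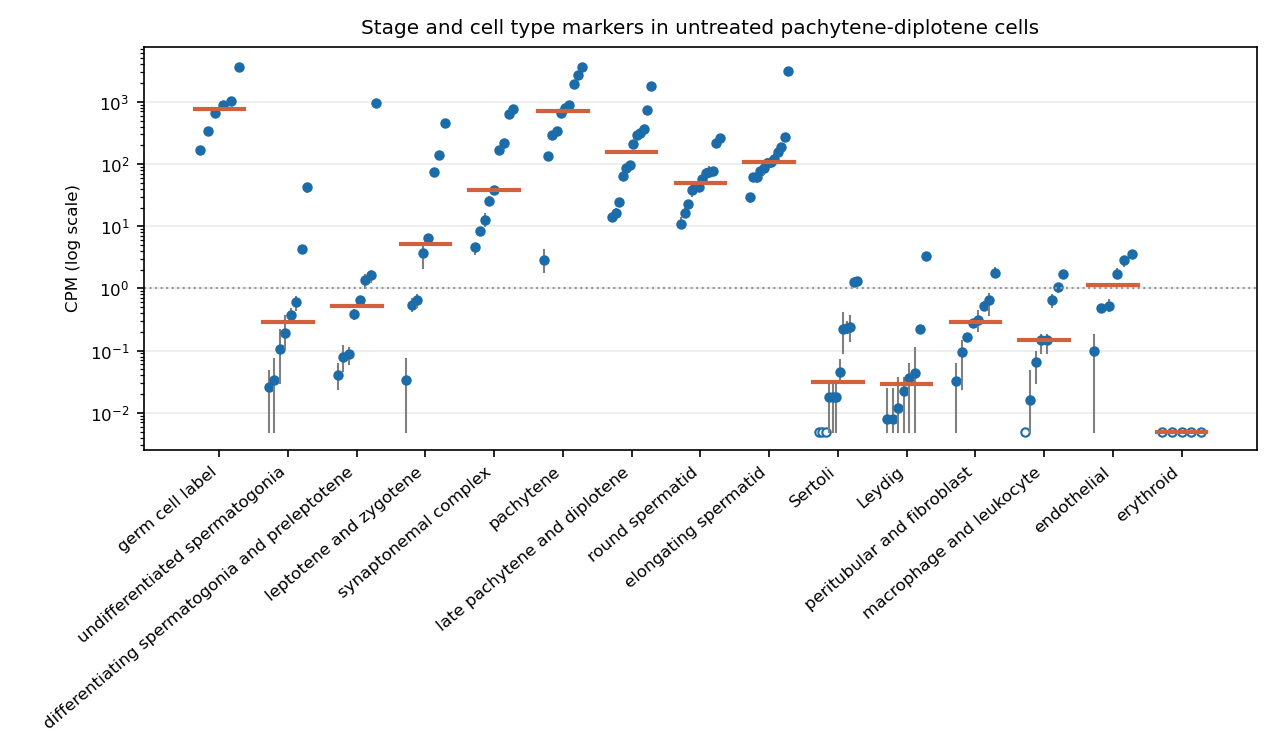
CPM (log scale) of each marker, with 1 circle for the mean of 3 untreated libraries, a grey line for their range, an orange bar for the list's median and open circles at the lower edge for genes with no count. The pachytene list has a median of 722 CPM, the Sertoli list 0.0318 CPM, and all 5 erythroid markers have no count.

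Somatic and blood markers were near 0. Over 6 lists with 47 genes, 8 reached 1 CPM in every library, where 26.4% of all genes did, and 9 had no count in any library. The sum over all 47 was 23.0, 24.5 and 24.0 CPM in libraries A, B and C. Of Sertoli markers, Gata4, Rhox5 and Fshr had no count and Sox9 had 3, 1 and 1 counts. Of Leydig markers, Star, the cholesterol carrier, had 3.33 ± 0.280 CPM, and the other 7 summed to between 0.329 and 0.397 CPM. Endothelial markers were the highest of these lists with a sum of 9.21 ± 0.364 CPM, led by Vwf with 3.56 ± 0.412 CPM. The macrophage gene C1qa and the globin genes had no count.

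Mitochondrially encoded messages held 0.448%, 0.456% and 0.473% of counts. Subunit mt-Co1 of cytochrome oxidase had 1673, 1656 and 1691 CPM and mt-Cytb, of complex III, 764, 730 and 802 CPM. By contrast mt-Co2, mt-Co3, mt-Atp6, mt-Nd3 and mt-Nd4l had between 0 and 0.59 CPM on average. Of the 50-base windows of these 5 genes, 98.0% to 100% also occur in other annotated genes, against 51.1% for mt-Co1 and 0 for mt-Cytb. The part of reads with several matches in these levels was not tested.

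Spread between libraries was small for most genes. The median coefficient of variation (CV) over the 3 libraries was 13.1% for 6068 genes with a mean of 1 to 10 CPM, 7.04% for 5265 genes of 10 to 100 CPM, 4.26% for 2098 genes of 100 to 1000 CPM and 4.34% for 115 genes above. These classes go by the mean of the 3 libraries, so they hold more genes than the counts of genes that reach a level in every library. Without library A the median CV of genes of 100 to 1000 CPM was 2.73%. Counting error alone would give 10.04%, 3.12%, 1.23% and 0.452% in the same classes. A ratio above 2 between a pair of libraries was found for 26 to 38 of the 12994 genes.

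Genes that varied most, at 20 CPM or more, were led by Gm3608, a pseudogene with 28.9, 1.30 and 64.6 CPM and 83.4% of its windows in other annotated genes. AY036118, Lars2 and Gm42418 came next, with CVs of 79.6%, 75.1% and 61.1%. Lower on that ranking were Myo7a, an unconventional myosin, with 37.0, 54.9 and 25.8 CPM, and Fcgr3, an antibody receptor, with 106, 101 and 49.4 CPM. Of the 30 genes with the most counts, Tcp1 had a CV of 0.585% and Eef2, the translation elongation factor, one of 0.896%.

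**Figure D5:**
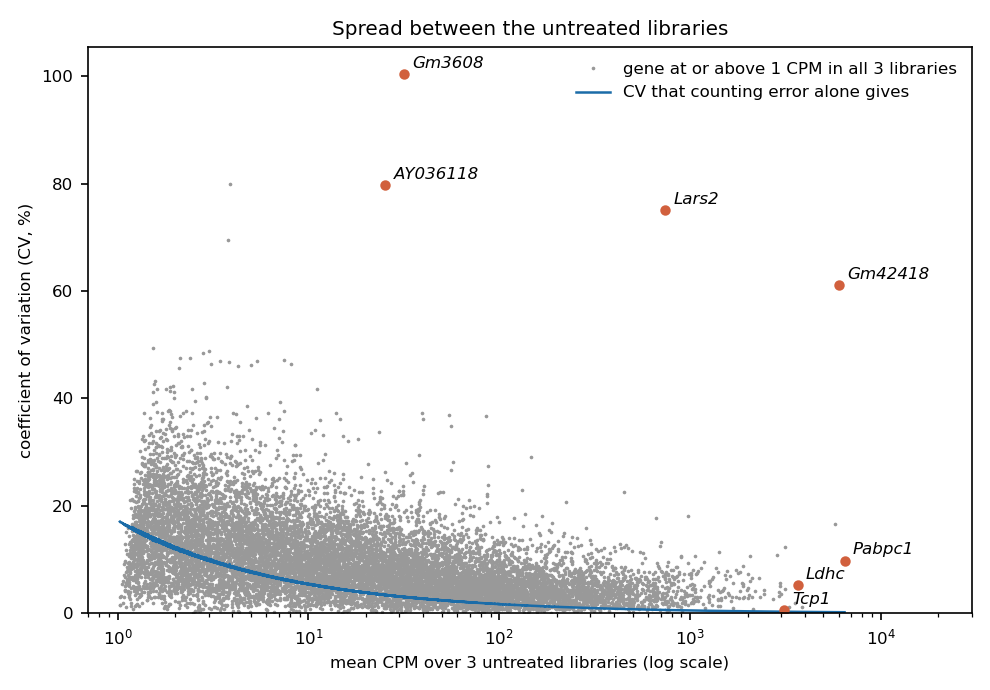
Coefficient of variation over the 3 untreated libraries (%) against mean CPM (log scale) for the 12994 genes at or above 1 CPM in each library, with the value that counting error alone gives as a line. Gm3608, AY036118, Lars2 and Gm42418 stand at 61.1% or above, while Ldhc lies at 5.27%.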

How the data were processed

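RNA was isolated with a Qiagen mini kit, messages were captured by their poly-A tails, and the KAPA Stranded mRNA-Seq kit served for library preparation, per the labels. Tools listed in the submitters' processing notes, without settings, are TopHat2 2.1.1, HTSeq 0.6.0, cutadapt 1.18, bcl2fastq 2.18.0.12 and DESeq2 1.22.2, with the build GRCm38. The values used are raw counts per gene, whole numbers that the authors deposited without normalization. A question mark stands in place of a value for 6255 genes, which were left out; because of these cells the columns do not pass as pure counts, and no count model was run. The 9 normalized columns were not used. Levels of 4 genes are not reported here, and they are left out of the plots, but they stay in all totals and counts.

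CPM is counts over the library total. Exon lengths (the union over transcripts) and overlaps came from GENCODE M21, which matched 48975 genes; its transcripts gave the share of each gene's 50-base windows found, on either strand, in genes that do not overlap it. Pairs with few somatic counts have exact intervals, which cover counting error only. Promoter letters are from RefSeq. Python 3.11.15, pandas 2.3.3, numpy 2.4.6, scipy 1.17.1 and matplotlib 3.10.9 were used. Scaling was tested on simulated data.

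With 1 group, values are means with SD over 3 libraries and no test was made. The members, the pairs, the marker lists and the rule for named genes (the 30 highest by CPM, the 15 highest per kb, the highest by gene type and on X and Y, the most variable, and the genes of pairs and marker lists) were chosen with earlier results of these data known. Alternatives were leaving out each library, scaling by the median of ratios or the trimmed mean of M values, other totals, a minimum of 10 counts and coding length.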

Additional observations from a re-analysis of the deposited data

How the results depend on the processing

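Of the recomputed values that have an SD over libraries, 179 moved by less than that SD and 13 by more. Of those without one (numbers of genes or pairs and median CVs), 31 stayed within a factor of 1.5, and 1 did not: the median CV of genes of 100 to 1000 CPM was 2.73% to 4.53% when 1 library was left out. The median log2 ratio of germline over somatic paralog is taken here in each library over the pairs and then averaged. In CPM, where the medians given above are per kb of exon length, it was 5.09 with all libraries. It ranged between 4.64 and 5.198 when 1 library was left out. Per kb of exon length it was 5.73, slightly different from the 5.75 given above, which is the median of the pairs' means. Chosen after seeing the data, it was 4.84 per kb of coding length and, in CPM, 3.91 over pairs with fewer than 25% shared windows. With at least 10 counts required in each library, processed pseudogenes held 0.267% and the Y chromosome 0.00981% of counts, and summed CPM was 2.54 for Sertoli, 3.33 for Leydig, 2.96 for peritubular and 3.41 for macrophage markers; fewer genes are summed there. With Gm42418, AY036118 and Lars2 out of the totals, also chosen after seeing the data, the top 100 genes held 18.7%, protein-coding genes 96.4% and lncRNAs 2.62% of counts. The cause of the other moves was not tested. No paired analysis was possible because libraries of 1 group only are used, so no letter is shared between groups compared, and no test was made. Levels below 0.108 CPM, 3 counts in the shallowest library, are not resolved at this depth.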
